A study of Caenorhabditis elegans with 2 samples.

Results

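A set of citric acid cycle genes of the nematode Caenorhabditis elegans, 10 of 19973 nuclear protein-coding genes, is described here by the peaks that chromatin immunoprecipitation and sequencing (ChIP-seq) of NHR-76 gave at its members. NHR-76 is a nuclear hormone receptor known from work on fat loss in the worm intestine. The 10 genes were chosen from their place in the cycle and around the strong peak at idhg-1, which was already known, so its strength chose the set and is given as a description only. A gene was given every peak whose summit lay within 1000 bp of an annotated transcript 5′ end or inside the gene. The group studied was strain OP203, genotype unc-119(ed3) III; wgIs203, a transgenic line that stably expresses NHR-76 fused at its C terminus to GFP and FLAG. Whole embryos of mixed stage and pooled sex were used, and the labels give 2 biological replicates and no second condition. All values therefore come from a tagged transgene in all embryonic cells together, and no change of binding or of expression was measured.

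The citric acid cycle runs in mitochondria, where it oxidises acetyl groups and feeds electrons to the respiratory chain. Its isocitrate dehydrogenase step turns isocitrate into 2-oxoglutarate and is a known control point of the cycle. The NAD-dependent enzyme of this step is built from alpha, beta and gamma subunits in mammals, and separate NADP-dependent isocitrate dehydrogenases, cytosolic and mitochondrial, provide NADPH.

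The sequence under the idhg-1 summit is shown because it carries the only member peak that stood apart from the rest. The authors' pooled peak spans chrIII:4568686-4568816 in the ce11 assembly, and the stretch printed, chrIII:4568686-4568796 on the forward strand, runs from the start of the peak to the base before the first 5′ end of idhg-1. The summits of the pooled list and of both replicates fell at positions 63 to 68 of this stretch. Beside it stand the 51 bp around the summits at ears-2, chrIV:390471-390521 on the reverse strand, and atx-2, chrIII:10461317-10461367 on the forward strand, whose nuclear peaks ranked just above. The same 51 bp at the strongest candidates of aco-2, chrIII:7973397-7973447 on the forward strand, and mdh-2, chrIII:6608132-6608182 on the reverse strand, show members with weak peaks upstream. Each is written 5′ to 3′ on the strand of its gene, read from RefSeq's WBcel235 genome, which is ce11 under another name. Capitals mark each copy of an element made of GCGGCG followed, after 0 to 4 bases, by TTGC, and the last pair of sequences holds none.
idhg-1: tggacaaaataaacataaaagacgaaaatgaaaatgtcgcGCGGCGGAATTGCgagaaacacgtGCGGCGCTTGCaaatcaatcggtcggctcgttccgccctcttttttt
ears-2: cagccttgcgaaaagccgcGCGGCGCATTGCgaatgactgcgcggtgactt
atx-2: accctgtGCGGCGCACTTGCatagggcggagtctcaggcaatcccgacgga
aco-2: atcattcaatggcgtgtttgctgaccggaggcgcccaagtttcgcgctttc
mdh-2: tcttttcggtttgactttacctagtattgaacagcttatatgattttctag

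Peak lists of 4 kinds were used. The pooled list, made from the reads of both replicates, holds 30000 peaks and is called the candidates here, because it keeps weak background as well. The list of replicate 1 holds 7516 peaks and that of replicate 2 holds 30000. The final list holds the 140 peaks, 122 of them nuclear, that the authors kept under a threshold on the irreproducible discovery rate. The strength of a peak is the authors' signal value, whose scale is not stated, and ranks run from 1 for the strongest peak of a list. Signals ran from 2.82 to 442 with a median of 4.31 among candidates, from 2.0 to 91.7 with a median of 2.74 in replicate 1, and from 2.36 to 360 with a median of 3.81 in replicate 2. Final peaks began at 20.0. The lists hold no read numbers, so the depth is unknown, and a gene with no peak in the shorter replicate 1 list may still have a weak one there.

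In the pooled list 9 members had at least 1 candidate, and idhg-2 had none. That is 9 of 10 genes, against 66.7% of all 19973 nuclear protein-coding genes. Within 1000 bp of a 5′ end 8 of 10 members had a candidate, against 54.2% of all genes, idh-2 being the other gene without. The replicate 1 list held a peak at 4 of 10 members, against 26.6% of all genes, and the replicate 2 list at 8 of 10, against 65%. The 4 with a peak in both replicate lists were idhg-1, idhb-1, cts-1 and aco-2, and 21.3% of all genes had peaks in both. Each of these counts includes idhg-1, whose peak chose the set. Of the 9 other members 8 had a candidate, 3 a replicate 1 peak, 7 a replicate 2 peak and 3 a peak in both. Most members carried some candidate, as most genes did, and nothing particular to the members is read from counts this small.

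The members parted among the stronger candidates. Among the 10000 strongest candidates 7 of 10 members were named, against 33% of all genes, with idh-1, idh-2 and idhg-2 missing. Of the 9 members other than idhg-1, 6 were named there. Among the 1000 strongest only idhg-1 remained, 1 of 10 members against 4.61% of all genes. Likewise idhg-1 alone had a final peak, 1 of 10 members against 0.716% of all genes. Since that peak chose the set, nothing is read from either count. Over the 9 members with a candidate, idhg-1 included, the strongest candidate had a median signal of 7.24 and a median rank of 3592. Over all 13324 genes with one these were 5.13 and 10133. Since the idhg-1 peak chose the set, these medians are a description only. The 10 members had a median length of 2332.5 bp and 1.7 candidates a gene, against 2027 bp and 1.39 candidates for all genes, and the part that length plays in these shares was not tested.

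**Figure D1:**
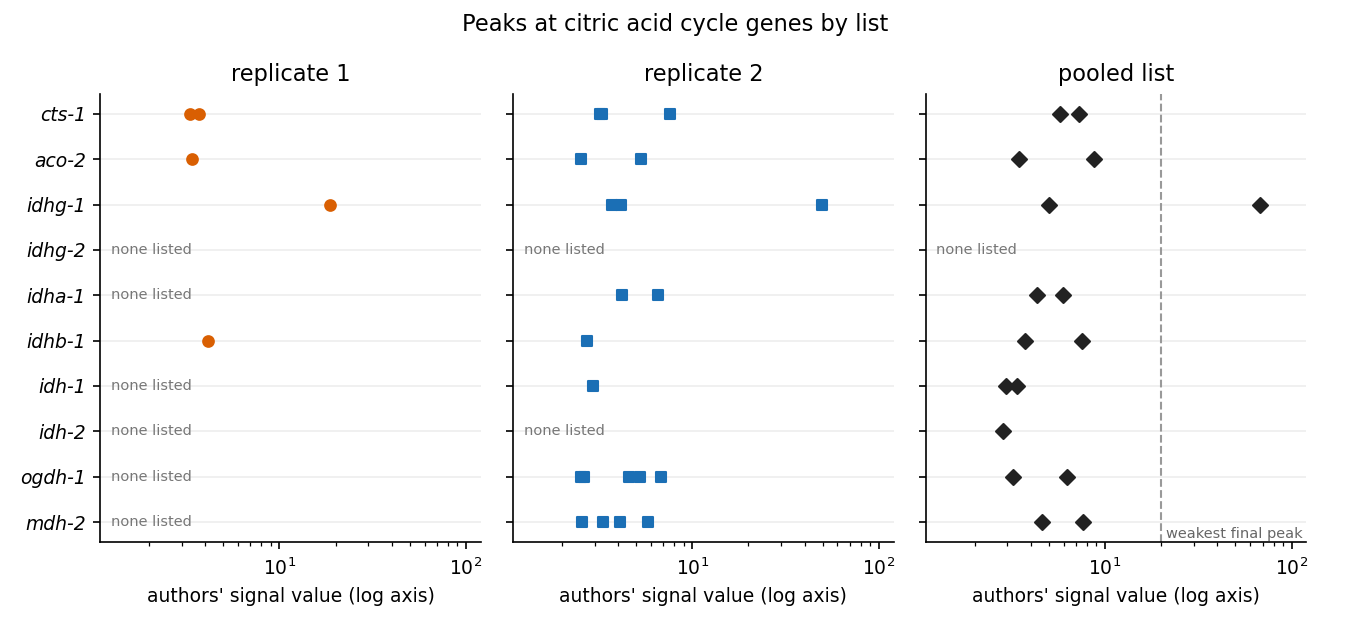
Signal value of every peak at the 10 genes (horizontal log axis, authors' unit) in replicate 1, replicate 2 and the pooled list, 1 row per gene and 1 mark per peak. The upstream idhg-1 peak, at 18.6, 49.5 and 68.1, is the rightmost mark of each panel, and in the pooled panel it is the only mark beyond the dashed line at the weakest final peak, 20.0.

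idhg-1 encodes a gamma subunit of the NAD-dependent isocitrate dehydrogenase and lies on chromosome III at 4568797 to 4571865 (ce11), forward strand, with annotated 5′ ends 216 bp apart. Its upstream peak had a signal of 18.6 and rank 12 in replicate 1, and a signal of 49.5 and rank 11 in replicate 2. In the pooled list, and unchanged in the final list, it had a signal of 68.1, rank 6 and a −log10 q of 3.16, a value that 725 candidates share. The peak was among the strongest 12 of each list. Its 3 summits lay 44, 46 and 49 bp upstream of the first 5′ end and spanned 6 bp. Widths were 131 bp in the pooled list and 113 bp in replicate 2, where almost all peaks have a set width of 340 and 420 bp, while the replicate 1 peak had that list's usual 360 bp. Only 7 of the candidates are narrower than their list's width, and this is among them.

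The first 5′ end comes from the Ensembl annotation. RefSeq starts idhg-1 at 4569013, which puts the same summit 262 bp upstream. The region between idhg-1 and its neighbour mlcd-1, chromosome III at 4568131 to 4568796, is 666 bp long. mlcd-1 encodes malonyl-CoA decarboxylase, an enzyme of fatty acid metabolism, and reads the other way, with its 5′ end 621 bp from the summit. The rule therefore gives the peak to mlcd-1 as well, although it lies much nearer to idhg-1. Apart from this peak idhg-1 had only weak ones. A candidate in the 3′ untranslated region had a signal of 5.03 and rank 10601, with a replicate 2 peak of 4.14 at rank 12592 beside it, and replicate 2 also listed 3.74 at rank 15553 in an intron.

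**Figure D2:**
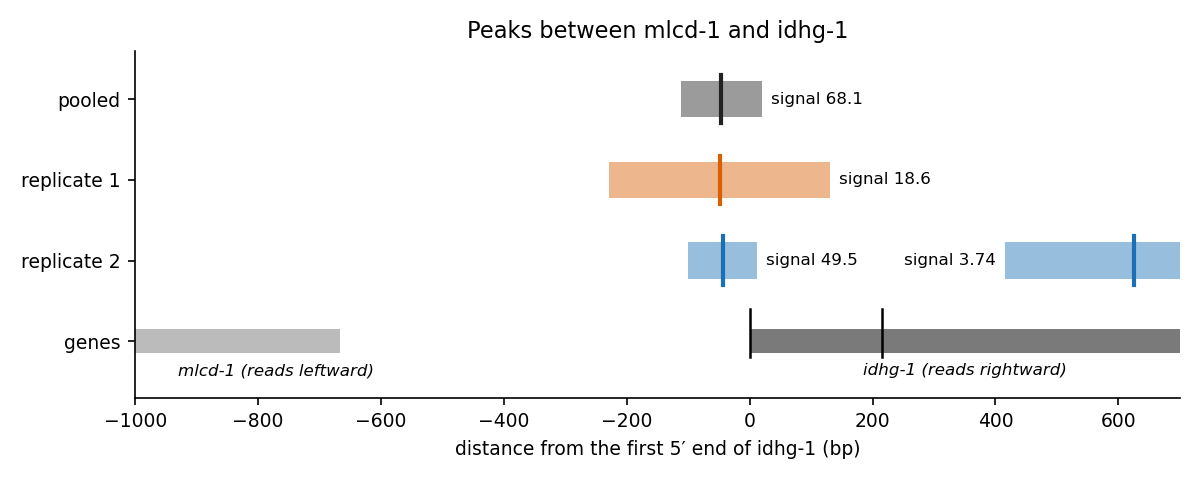
Map of the region between mlcd-1 and idhg-1, to scale in bp from the first 5′ end of idhg-1. Bars are the peaks of the pooled list and of each replicate with their signal values, thick ticks are summits, and thin ticks on the gene row are the 5′ ends of idhg-1. The 3 upstream summits coincide within 6 bp.

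The paralog idhg-2, also a gamma subunit gene, had no peak in any list. It lies on chromosome I at 6974558 to 6977071, forward strand. The nearest candidate was 1967 bp outside the gene, with a signal of 3.49 and rank 22155. In replicate 1 the nearest peak lay 174 bp past the 3′ end, with a signal of 2.3 and rank 5684, and in replicate 2 the nearest lay 3850 bp away, with a signal of 6.29 and rank 4068. Thus of the pair of gamma subunit genes 1 held the strongest member peak and the other was the only member without a candidate.

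idha-1, the gene of the catalytic alpha subunit, is on chromosome I at 8606549 to 8608631, reverse strand. Replicate 1 listed no peak there, and its nearest was 4226 bp away. Replicate 2 had 6.59 at rank 3485, 200 bp upstream, and 4.22 at rank 12118 in an intron, 1511 bp downstream of the 5′ end. Candidates had a signal of 5.94 at rank 6806 in a coding exon, 1629 bp downstream, and 4.32 at rank 14931, 102 bp upstream. The stronger replicate 2 peak was thus the upstream one, and the stronger candidate the exonic one.

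idhb-1, the gene of the beta subunit, is on chromosome X at 14170730 to 14174063, reverse strand. Its strongest candidate, 7.51 at rank 3178, lay in the first intron, 179 bp downstream of a 5′ end, and had no replicate summit within 100 bp. A weaker candidate, 3.71 at rank 20007, lay 64 bp upstream. Replicate 1 listed 4.16 at rank 1032 in the 5′ untranslated region, 22 bp downstream, and replicate 2 listed 2.74 at rank 25272, 246 bp upstream. Both replicate lists thus named the gene, but at summits on different sides of its 5′ end. RefSeq starts idhb-1 further inside, and by that 5′ end the strongest candidate is 495 bp upstream.

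Taking the strongest candidate of each member that had one, those of the genes for the NADP-dependent enzymes were the weakest. idh-1, the gene of the cytosolic enzyme, lies on chromosome IV at 9439078 to 9441107, reverse strand. Its candidates had signals of 3.38 at rank 23292 and 2.94 at rank 28499, and replicate 2 had 2.95 at rank 22932, while replicate 1 listed none. The first of these summits lay 238 bp past the 3′ end of the gene, inside the gene F59B8.1, and counted only because it is 566 bp from the 5′ end of a short transcript. idh-2, the gene of the mitochondrial enzyme, lies on chromosome X at 11216000 to 11218150, forward strand. It had 1 candidate, 2.84 at rank 29796, in a coding exon 1937 bp downstream of the 5′ end, and no peak in either replicate list. The weaker idh-1 candidate and the idh-2 candidate were near the bottom of the pooled list, whose lowest signal was 2.82.

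cts-1 encodes citrate synthase, which joins acetyl-CoA to oxaloacetate, and lies on chromosome III at 10214771 to 10216635, reverse strand. Its candidates were both in coding exons, with signals of 7.24 at rank 3592, 1431 bp downstream of the 5′ end, and 5.73 at rank 7547, 312 bp downstream. Replicate 1 had 3.71 at rank 1538, 951 bp downstream, and 3.33 at rank 2173, 72 bp downstream. Replicate 2 had 7.65 at rank 1989, 1458 bp downstream, 3.29 at rank 19359, 313 bp downstream, and 3.21 at rank 20110, 278 bp upstream. The replicate 2 summits matched both candidates within 100 bp and the replicate 1 summits matched neither.

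aco-2 encodes mitochondrial aconitase, which makes isocitrate from citrate, and lies on chromosome III at 7973717 to 7977355, forward strand. Its upstream peak had a signal of 3.41 and rank 2031 in replicate 1, 337 bp upstream, and 5.34 and rank 6759 in replicate 2, 331 bp upstream. The candidate had 8.78 at rank 1737, with a −log10 q of 1.82, and lay 295 bp upstream. Among the candidates of the set this was the second strongest. In the replicate lists other members had stronger peaks, such as 4.16 at idhb-1 in replicate 1 and 7.65 at cts-1 in replicate 2. Besides idhg-1, aco-2 was the only member whose strongest candidate had a summit within 100 bp in both replicate lists. That holds for 2 of 10 members, against 4.14% of all genes, and for aco-2 alone of the 9 members other than idhg-1, so nothing is read from this count. The summit lies closer to another gene, 36 bp from the 5′ end of eef-1B.1, which encodes a subunit of elongation factor 1B and reads the other way, and inside the noncoding RNA gene F54H12.9, so the peak cannot be given to aco-2 by position. A further candidate of 3.44 at rank 22640 and a replicate 2 peak of 2.55 at rank 27566 lay in coding exons.

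ogdh-1 encodes the E1 subunit of the 2-oxoglutarate dehydrogenase complex, the step after isocitrate dehydrogenase, and lies on chromosome IV at 4696979 to 4704011, reverse strand. Its strongest candidate, 6.29 at rank 5702, was in a coding exon, 684 bp upstream of an inner 5′ end, and replicate 2 had the same summit with 5.24 at rank 7100. The other candidate, 3.23 at rank 24903, lay in an intron, where replicate 2 had 4.6 at rank 9977. Replicate 2 had 3 more peaks in the gene body, the strongest being 6.78 at rank 3155 at the end of the 3′ untranslated region. Replicate 1 listed none. A stronger candidate lay just outside the rule, 1405 bp upstream, with a signal of 10.4 and rank 888. At that place replicate 1 had the same summit with 2.29 at rank 5723, and replicate 2 had 7.1 at rank 2667, 1435 bp upstream. The distance limit thus decided which ogdh-1 peak was counted.

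mdh-2 encodes mitochondrial malate dehydrogenase, which makes oxaloacetate at the end of the cycle, and lies on chromosome III at 6606544 to 6608106, reverse strand. Its strongest candidate, 7.63 at rank 3002, lay 51 bp upstream, the nearest to a 5′ end after idhg-1 among the members' strongest candidates. The rule gives it to F20H11.4 as well, whose 5′ end is 465 bp from the summit. Replicate 2 had 5.77 at rank 5346, 93 bp downstream, and 4.13 at rank 12721, 118 bp upstream, and replicate 1 listed none. These 2 summits lie on either side of the pooled one. A candidate of 4.59 at rank 13217, 954 bp upstream, was just inside the rule and is also shared with F20H11.4. Further replicate 2 peaks had signals of 3.33 in the 3′ untranslated region and 2.57 at 866 bp upstream. Just outside the rule were also candidates of 4.35 at rank 14757, 1219 bp upstream of idhg-1, and of 4.03 at rank 17206, 1592 bp upstream of idh-1.

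The 10 genes held 17 candidates in all. Of these, 13 lay within 1000 bp of a 5′ end, 10 within 500 bp, and 4 counted through the gene body alone. By place 7 were in coding exons, 6 upstream, 2 in introns, 1 in a 3′ untranslated region and 1 downstream. A candidate outside the gene body had to lie within 1000 bp of a 5′ end to be counted at all. The same split is not given for all candidates, so nothing is read from these positions. Replicate 2 had a summit within 100 bp of 11 of the 17 and replicate 1 of 3, both replicates had one for 2 and neither for 5. Of all nuclear candidates 54.1% had a replicate 2 summit within 100 bp, 10.7% a replicate 1 summit and 3.54% both. The pooled list holds the reads of both replicates, so these matches are not independent of it.

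**Figure D3:**
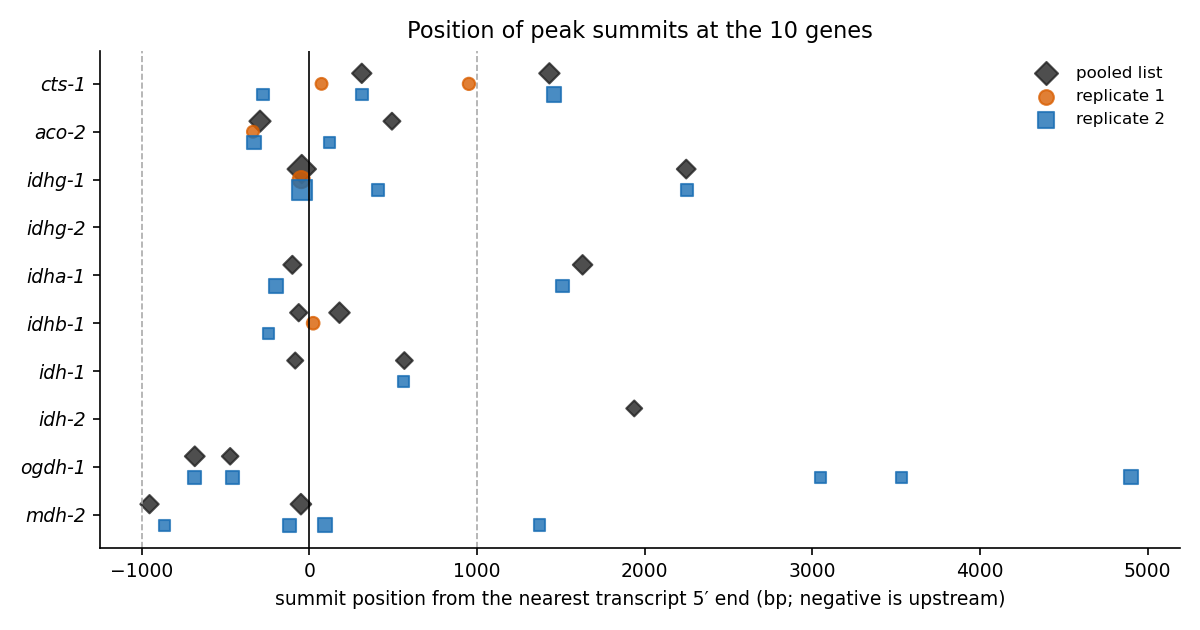
Position of each peak summit at the 10 genes in bp from the nearest transcript 5′ end (negative is upstream, dashed lines at 1000 bp), with larger marks for higher signals. Marks from the 3 lists coincide at idhg-1, 44 to 49 bp upstream, while at most other genes they lie apart or come from fewer lists.

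The other genes of the pathway were taken as 3 lists, the remaining cycle steps (13 genes), the entry of pyruvate (8 genes) and side routes (10 genes). Of these 31 genes 25 had a candidate, 12 a replicate 1 peak and 24 a replicate 2 peak, or 80.6%, 38.7% and 77.4%. Over all genes these shares were 66.7%, 26.6% and 65%. None of the 31 had a final peak, against 0.716% of all genes, so nothing is read from that absence. Among the 1000 strongest candidates 4 of the 31 were named, or 12.9%, beside the 4.61% of all genes. Median signals of the strongest candidate were 7.25 for the remaining steps, 7.58 for pyruvate entry and 5.77 for side routes. The median for the members, with idhg-1 included, was 7.24. After idhg-1 the highest member signal was 8.78, and the highest in these lists was 10.9.

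In the remaining steps the strongest candidates were at suca-1, mev-1 and dlst-1. suca-1, a subunit gene of succinyl-CoA ligase, had 2.84 at rank 3407 in replicate 1, 7.39 at rank 2284 in replicate 2 and 10.9 at rank 763 in the pooled list, 118 bp upstream. mev-1, the cytochrome subunit of succinate dehydrogenase, had 4.92 at rank 519, 6.74 at rank 3215 and 10.6 at rank 832 in these lists, 106 bp upstream, and the peak is shared with jmjd-4. dlst-1, the E2 subunit of the 2-oxoglutarate dehydrogenase complex, had 5.73 at rank 5468 in replicate 2 and 10.4 at rank 892 in the pooled list, 136 bp upstream, with none in replicate 1. These 3 lay within 200 bp upstream of a 5′ end, as did the strongest candidates of idhg-1 and mdh-2. No candidate was listed at fum-1, sdha-2, sdhd-1 or sucg-1.

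At pyruvate entry mpc-1, a mitochondrial pyruvate carrier gene, had 7.72 at rank 1923 in replicate 2 and 10.6 at rank 841 in the pooled list, in an intron. The rule gives its candidate to R07E5.11 as well. pdhb-1, the E1 beta subunit of pyruvate dehydrogenase, had 10.3 at rank 600 in replicate 2 and 9.27 at rank 1396 in the pooled list, and shares its peak with dyf-3. pyc-1, pyruvate carboxylase, had 4.06 at rank 1124 in replicate 1 and 7.75 at rank 2843 in the pooled list, 55 bp downstream of a 5′ end. Each of these 3 was missing from 1 replicate list. None of the 8 genes of this list had a peak in both, against 21.3% of all genes, and nothing is read from a list this small.

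Of the side routes all 10 genes had a candidate and a replicate 2 peak, and 6 a replicate 1 peak. Over all genes these shares were 66.7%, 65% and 26.6%. The side-route genes had a median length of 3549 bp and 3.0 candidates a gene, against 2027 bp and 1.39 for all genes. The part that length plays in these counts was not tested. gdh-1, glutamate dehydrogenase, which also makes 2-oxoglutarate, had a candidate of 8.46 at rank 2038, 438 bp upstream. Replicate 2 had only 3.0 at rank 22268 beside it, and replicate 1 listed no peak at the gene. Its strongest replicate 2 peak, 5.45 at rank 6370, lay 1945 bp downstream. pck-1, a phosphoenolpyruvate carboxykinase, had its strongest candidate, 7.38 at rank 3360, 2519 bp downstream of a 5′ end, with no summit of either replicate within 100 bp. Its strongest replicate peaks had other summits, 5.68 at rank 289 in replicate 1, 2291 bp downstream, and 5.95 at rank 4867 in replicate 2, 1101 bp downstream. The replicate 1 peak, 63789 to 64148, still overlapped the candidate, 63571 to 63910. The replicate 2 peak, 64949 to 65368, lay apart from both. icl-1, the isocitrate lyase and malate synthase of the glyoxylate cycle, had its strongest candidate, 7.14 at rank 3783, 1508 bp downstream, where replicate 2 had 3.43 at rank 18037 and replicate 1 none within 100 bp. Its strongest replicate 2 peak, 10.8 at rank 489, matched a weaker candidate of 6.26, and its strongest replicate 1 peak, 4.14 at rank 1050, matched none. None came near the 68.1 of idhg-1, and none reached the signal of a final peak.

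**Figure D4:**
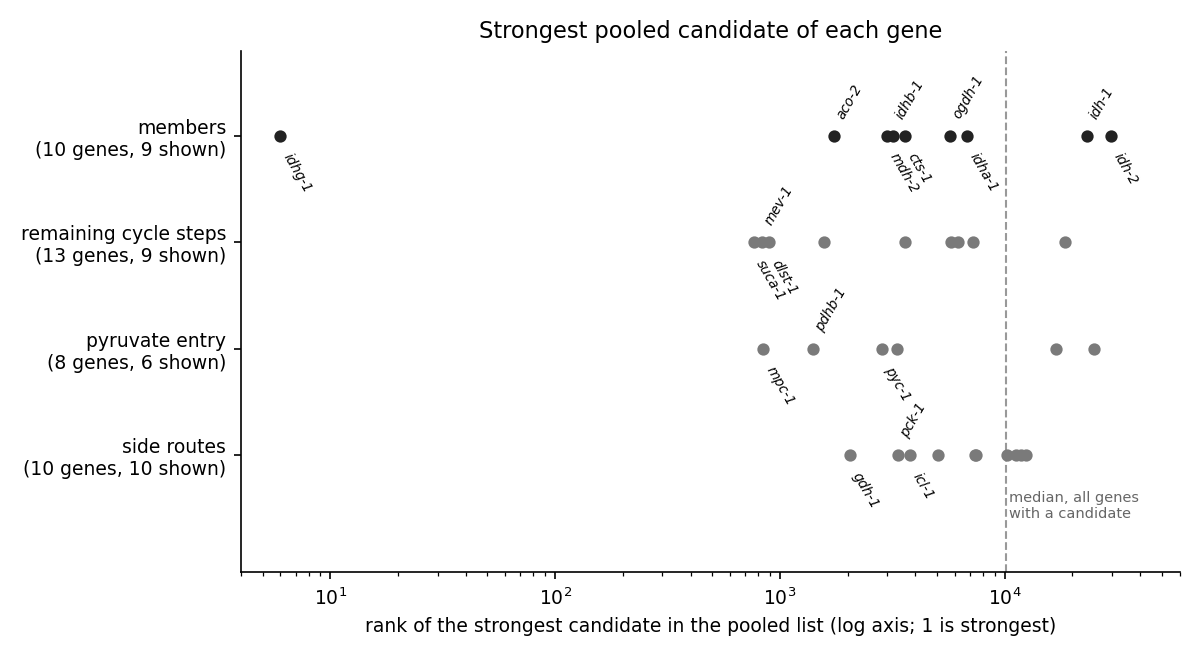
Rank of the strongest candidate of each gene in the pooled list (log axis, 1 is strongest) for the members and the 3 lists of other cycle genes, 1 point per gene with a candidate. All members and the leading 3 genes of each other list are named; idhg-1 at rank 6 stands apart, and the dashed line is the median over all genes with a candidate, 10133.

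The genes with a pattern most like idhg-1 were named by the sum of absolute differences of log2 rank over the pooled list and both replicate lists, that is over 3 lists of which 2 are samples. mlcd-1 came first, at 0.00, because it has the same peak. ears-2, which encodes a glutamyl-tRNA synthetase, and uncp-18 followed at 1.84 each, and share 1 peak between them, 28 and 64 bp upstream of their 5′ ends. That peak ranked 4 in the pooled list, 13 in replicate 1 and 5 in replicate 2, with signals of 82.8, 18.3 and 64.4. Members of the set were left out of this ranking, so none of them could be named. The genes named here are in none of the lists of other cycle genes.

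The 100 bp to the left and to the right of the summit of each member's strongest candidate, 9 windows in all, were searched on both strands for short motifs. The nuclear receptor hexamer AGGTCA was in 0 of 9 windows, against 5.55% of all nuclear candidates and 3.28% of nuclear final peaks. Its variant AAGTCA was in 2, those of cts-1 and mdh-2, against 9.39% and 4.1%. TGATAA, the core bound by GATA factors, was in 4, those of idhg-1, idh-1, aco-2 and ogdh-1, against 16.8% and 6.56%, and at idhg-1 it lay 78 bp from the summit. No single motif was shared by a majority of the windows.

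The other motifs were in 1 or 2 windows each. GAGAGA was in those of cts-1 and ogdh-1, against 14.9% of candidates and 35.2% of final peaks, and TATAAA in those of idh-1 and mdh-2, against 16.9% and 12.3%. The tRNA A box was in the window of idh-1 and the B box in that of mdh-2, against 14% and 8.6% of candidates and 29.5% and 19.7% of final peaks. The windows had a median GC content of 38.3%, the same as all candidates, while final peaks had 46.8%. At 35.8% idhg-1 was low in GC for a final peak, with 4.92% of them below it. A match shows only that the letters are present in the window.

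A further pair of patterns were searched after the sequence of the idhg-1 peak had been seen. CACGTG, the E-box hexamer, lies at positions 60 to 65 of the printed idhg-1 sequence, 1 bp from the summit, in 1 of 9 member windows, against 4.35% of candidates and 6.56% of final peaks. The element in capitals, GCGGCG and TTGC at 0 to 4 bases, was noticed because the peaks at idhg-1, ears-2 and atx-2, the ataxin-2 gene, share it. In idhg-1 it occurs at positions 41 to 53, with 3 bases between its parts and 13 bp from the summit, and at positions 65 to 75, with 1 base between them and the summit inside it. The later copy overlaps CACGTG by 1 base. ears-2 and atx-2 have 1 copy each, within 6 bp of the summit, and each of these 4 copies reads in the direction of the gene named here. The rule also gives each of these peaks to another gene, mlcd-1, uncp-18 and ecps-1 in turn. The direction of copies in other final peaks is not given, so nothing is read from direction.

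The element was then counted in windows of the same length everywhere, on either strand. It was in 17 of 122 nuclear final peaks, or 13.9%, against 53 of 29857 other nuclear candidates, or 0.178%, and 12 of 858 other candidates among the 1000 strongest, or 1.4%. Without the 3 peaks that gave the pattern it was in 14 of 119 final peaks, or 11.8%. All 17 had a protein-coding gene start no more than 500 bp away, and they ranked 3 to 140. The same share is not given for final peaks without the element, so nothing is read from this position. Final peaks with the element had a median GC content of 41.3%, and those without it 49.3%. GCGGCG, with or without TTGC, was in 36 of 122 nuclear final peaks, or 29.5%. It was in 4.6% of other nuclear candidates and 9.21% of those among the 1000 strongest. So the idhg-1 peak shares with a minority of final peaks an element that is rare among candidates. What each part of the element adds to this contrast was not tested.

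The element was rare in gene starts too. Placed 46 bp upstream of every gene, where the idhg-1 summit lies, the window held it at 35 of 19973 genes, or 0.175%. Of these 35 genes 13 had a final peak, or 37.1%, and 29 a candidate, or 82.9%, against 0.652% and 66.7% of the 19938 genes without it. Leaving out the genes given any of the 3 peaks that gave the pattern, 9 of 31 had a final peak, or 29.0%. A candidate was at 25 of them, or 80.6%. The element was taken from 3 final peaks and the window position from the idhg-1 summit. Neighbouring genes can also share 1 peak, so the genes are not independent. These shares are therefore a description only. Among the 17 member candidates only the idhg-1 peak held it, and none of the 20, 6 and 30 candidates of the other cycle lists did. Letters alone do not show which protein contacts them, and whether NHR-76 binds the element was not tested.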

How the data were processed

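NHR-76 ChIP-seq was analysed in 2 biological replicates of 1 group. Per the deposited README, the authors called peaks on the alignment of each replicate relative to a control, and again on the alignments of both together, and the final list is the optimal one under a threshold on the irreproducible discovery rate. Column 7 holds the authors' signal value, of unstated scale, and column 9 the −log10 of the q-value as deposited, which was not adjusted further. The aligner, the threshold, the peak caller and its version were not given in the sources used here. Lists in the ce10 assembly were not used here. Summits were placed on the Ensembl release 115 annotation and the RefSeq WBcel235 sequence with python 3.11.15, numpy 2.4.6, pandas 2.3.3 and matplotlib 3.10.9. All peaks lay within its sequence lengths, and coordinates are counted from 1. The assignment of peaks to genes was checked on simulated peaks. No read numbers are given, so no interval is given. Members and lists were chosen with earlier results of these data known, and with 1 group no test was run. Named were all members, genes with a 5′ end within 1000 bp of a member peak in the strongest 1000, the 3 genes with the strongest candidates of each other list, and the 3 most like idhg-1; atx-2, eef-1B.1 and other neighbours, the genes without a candidate and the element were named after their values were seen. Alternatives changed the distance, the 5′ ends, the match of summits, the list depth and the replicates used.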

Additional observations from a re-analysis of the deposited data

How the results depend on the processing

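Of the counts and ranks recomputed, 30 stayed within 1.5 times their value and 8 did not. Members with a candidate numbered 9, but 1 in the strongest 1000 candidates, and 4 to 8 when only 1 replicate's list was used, 4 without replicate 2 and 8 without replicate 1. Members with a peak in both replicate lists numbered 4, but 2 at a distance of 200 bp. The idhg-1 peak ranked 6, but 3 among nuclear candidates, 11 to 12 in a single replicate, and 1 by the −log10 q, where 725 candidates tie. The count of 1 member with a final peak was 1 under every alternative run for it. Members whose strongest candidate matched both replicates numbered 2 under each matching rule tried; with other distances to the gene, alternatives chosen after seeing the data, they numbered 1 at 200 bp, without aco-2, and 3 at 2000 bp, with ogdh-1. RefSeq gene ends, also chosen after seeing the data, left 9, 1 and 4 members as before. No paired analysis was possible because there is 1 group. The replicate 1 list is shorter, with 7516 peaks, and its lowest −log10 q is 2.62, so weak peaks of replicate 1 are not listed; replicate 2 and the pooled list reach down to 0.0594 and 0.0893. Depth is unknown, so how much it limits the weaker peaks was not tested. The lists hold no value at a gene without a peak, and a peak between neighbours cannot be given to 1 of them by position.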
